A study of Mus musculus with 22 samples.

Results

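The replication-dependent histone genes are the clustered genes that encode the linker histone H1 and the core histones H2A, H2B, H3 and H4. They were taken here as the protein-coding genes present in both deposited tables whose symbols match H1f1 to H1f5, or H2ac, H2bc, H3c or H4c followed by a number, with at least 10 counts in total over all libraries. Of 56691 genes in the tables, 67 matched by name and 65 met the minimum, namely 5 H1, 17 H2A, 18 H2B, 12 H3 and 13 H4 genes. In the mouse genome 51 of them lie on chromosome 13, 10 on chromosome 3, 3 on chromosome 11 and 1 on chromosome 6. The genes left out were H2ac1 and H2bc1.

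Bulk total RNA sequencing was done on cells that carry CD11b, a surface marker of microglia and other myeloid cells, isolated on magnetic beads from the brains of wildtype CF-1 mice. The HIE animals model neonatal hypoxic-ischemic encephalopathy. Their dams were injected with lipopolysaccharide (LPS) late in gestation and the pups were exposed to brief hypoxia in the first postnatal week, whereas control dams received saline and control pups normoxia. The 20 animals fell into 5 groups of 4. These were HIE at P7 (4 males), early controls, HIE at P14, controls at P14 and hypoxia at P14, the last 4 groups with 2 males and 2 females each. The labels give the early controls the days P8, P9, P10 and P11, 1 pup each, so they were compared as early animals and not as P7 animals. The paper gives P7 for the controls as well as the HIE animals of this comparison. The sources thus differ on the age of the early controls, and days given for them below are the labelled ones. The hypoxia group carries only that word as its treatment. Whether its dams received LPS or saline is not given in the sources used here. Early and P14 libraries are in separate tables of the deposit, so the day and the table cannot be told apart. Animal names begin with prefixes (N5, N8, P6H63 and P6H55 for early animals, P4H1, P4H4, P6H7, P6H8, P6H9 and P6H12 at P14), and animals that share a prefix are not independent of each other if it names a litter.

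Cells make these mRNAs almost only during S phase, when newly replicated DNA must be packed into nucleosomes. Transcription is driven by NPAT at histone locus bodies under cyclin E and CDK2. The mRNAs end in a conserved stem-loop in place of a poly(A) tail. The stem-loop is bound by SLBP and cut by a complex that contains the U7 snRNP, and the mRNAs are degraded when DNA synthesis stops. Oligo(dT) libraries therefore lose most of them, while rRNA-depleted total RNA libraries such as these retain them. In tissue they are taken, as a set and not gene by gene, as a mark of cells in S phase.

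The stem-loop was searched for in the GRCm39 genome because it is the element that sets these mRNAs apart. The letters most often shared after the stop codon, among 16-base stretches whose ends pair with each other, were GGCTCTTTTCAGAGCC. A match with at most 4 mismatches was found within 200 bases after the stop codon in 64 of the 65 genes and was not found in H2bc21. In H2bc22, H2bc23 and H2bc24 it followed the stop codon of a coding transcript other than the canonical one. The match was exact in 41 genes and had 1 mismatch in 9. All 13 H4 genes and H3c8 had at least 2 mismatches, and in 8 of the H4 genes the letters were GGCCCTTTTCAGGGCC, in which the stem remains paired. The examples below cover each family and the divergent H3c8, with 7 bases on either side, 5′ to 3′, and the matched 16 bases in capitals.
H1f4, chr13:23805758-23805787, minus strand: acccaaaGGCTCTTTTCAGAGCCacccaca
H2ac12, chr13:22219290-22219319, minus strand: tcccaaaGGCTCTTTTCAGAGCCacacaca
H2bc8, chr13:23756010-23756039, plus strand: acccaaaGGCTCTTTTCAGAGCCacccata
H3c2, chr13:23936796-23936825, plus strand: acccaaaGGCTCTTTTCAGAGCCacccaca
H4c8, chr13:23715621-23715650, plus strand: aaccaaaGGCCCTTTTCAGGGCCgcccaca
H3c8, chr13:23720052-23720081, plus strand: ctttaaaGGCTCTTCTTAGAGCCacccatc
H1f4 and H2ac12, with 1 of the narrowest and 1 of the widest differences between days, share these 16 bases with the other exact matches. Whether the stem-loop letters relate to the change with day was not tested.

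Promoter letters were read from RefSeq for the GRCm38.p6 build, which differs from the build of the counts, and 55 of the 65 genes had an entry (56 promoters of 300 bases). On either strand, CCAAT, the letters of a CCAAT box, occurred in 85.7% of these promoters against 37.4% of all 32851 promoters in the table. It was present in all H1, H2A, H2B and H3 promoters and in 27.3% of the H4 promoters. The TATA box letters TATAAA occurred in 57.1% against 13.6%. The octamer ATTTGCAT, known for its role in H2B promoters, occurred in 42.9% of the H2B, 31.2% of the H2A and no H1, H3 or H4 promoters, against 1.74% of all. AAACACA, known from H1 promoters, occurred in 80% of the H1 promoters against 7.18% of all. The 250 bases before the start are given for H2ac12 and H1f4, the genes with the largest and the smallest fall with day in controls outside the pairs of genes with identical coding sequence, with these motifs in capitals.
H2ac12, chr13:22035644-22035893, minus strand: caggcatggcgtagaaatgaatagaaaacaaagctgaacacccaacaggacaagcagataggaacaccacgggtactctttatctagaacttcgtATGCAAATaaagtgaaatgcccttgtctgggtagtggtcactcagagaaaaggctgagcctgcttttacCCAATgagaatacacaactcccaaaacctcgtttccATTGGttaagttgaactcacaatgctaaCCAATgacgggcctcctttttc
H1f4, chr13:23622559-23622808, minus strand: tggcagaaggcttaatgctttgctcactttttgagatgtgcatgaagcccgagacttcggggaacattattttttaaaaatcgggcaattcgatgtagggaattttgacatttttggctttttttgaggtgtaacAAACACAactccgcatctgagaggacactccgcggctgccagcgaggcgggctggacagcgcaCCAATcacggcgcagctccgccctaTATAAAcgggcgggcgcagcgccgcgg
The H2ac12 stretch holds CCAAT on both strands and an octamer on the opposite strand. In H1f4 it holds TATAAA, the H1 motif AAACACA and a CCAAT. A match is a description of letters and not of binding.

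Library totals ranged from 29751540 to 46404123 counts at P14 and from 70191584 to 83469067 in the early groups. Levels are given as CPM, the counts scaled to a common library total, with TMM factors over all 20 animals, and fold changes are edgeR estimates on the log2 scale. The samples are labelled monocytes (CD11b+), and 11 microglia markers summed to between 17000 and 30400 CPM in all P14 and HIE P7 animals. In the early controls the same sum was 1370 to 15100 CPM, lowest in the P6H63 pups, while choroid plexus markers summed to 3380 to 8880 CPM, against 866 to 4880 CPM elsewhere. In none of the 5 groups was any measured gene of the 9 cell type lists at 0 counts in all animals. In bulk samples, fewer cells of a type and less RNA per cell cannot be told apart.

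The 65 genes together fell steeply between the early days and P14. Their summed level was 4391, 4858, 4722 and 3493 CPM in the early controls and 5046, 4646, 3563 and 4635 CPM in the HIE animals at P7. At P14 it was 1472, 1039, 1944 and 1008 CPM in controls, 1749, 1736, 1137 and 1127 CPM in HIE, and 1626, 1172, 1006 and 1478 CPM in hypoxia. The lowest early animal was above the highest P14 animal, whereas within a day the treatment groups overlapped. As a share of all counts with no scaling, the genes took 0.348% to 0.580% of the counts of each early animal and 0.104% to 0.183% at P14. All 8 early animals were above all 12 P14 animals for 49 of the 65 genes, and for 0 genes was the order the opposite. Among the 32217 genes with a total of at least 10 counts, 7.53% lay wholly above and 6.17% wholly below in this way.

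**Figure D1:**
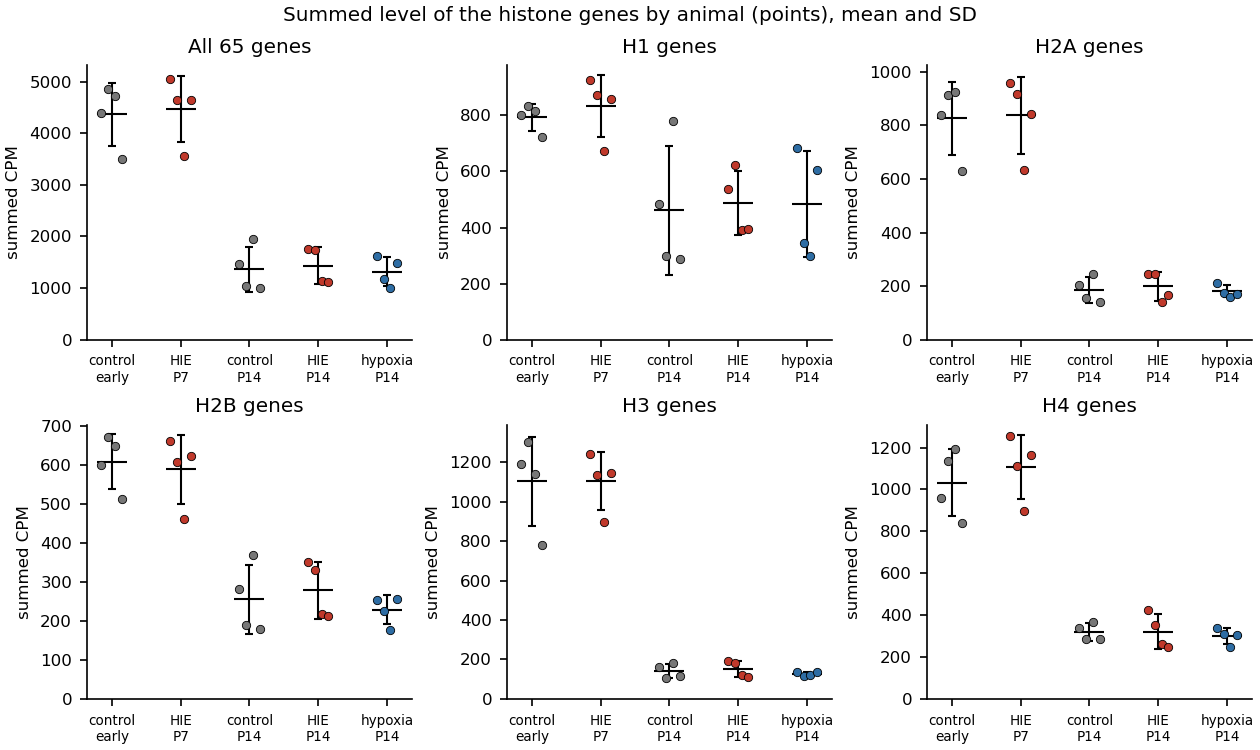
Summed CPM (y axis, linear from 0) of all 65 histone genes and of each family in the 5 groups (x axis), with 1 point per animal and the mean with SD as a bar (n = 4). For all genes together the early animals sit between 3493 and 5046 CPM and the P14 animals between 1006 and 1944 CPM, with the least separation in the H1 family.

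The day comparison asks how the genes differ between the early days and P14. The HIE animals were all males at P7 and 2 males and 2 females at P14, and the days share no prefix. In controls, 57 of the 64 genes tested were lower at P14 and 0 were higher by edgeR's quasi-likelihood test at a Benjamini-Hochberg adjusted p under 0.05. Of all 24693 genes tested, 25.4% were lower and 20.4% higher. In HIE animals, 54 of 64 were lower at P14 than at P7 and 0 were higher, where 16.2% of all genes were lower and 17.3% higher. In either direction 45.8% of all genes passed in controls and 33.5% in HIE. DESeq2's Wald test called 58 histone genes in controls and 54 in HIE, against 49.9% and 38.3% of all genes, and edgeR's exact test 56 and 57, against 36.2% and 46.1%. At an unadjusted p under 0.05 there were 59 and 57, against 53.8% and 43.3%. The median log2 fold change of the histone genes was -1.99 in controls and -1.79 in HIE, beside -0.05 and 0.03 over all genes. The call was shared by 53 genes. H2ac19, H2bc21, H2bc24 and H4c17 passed in controls and not in HIE, H2bc4 in HIE and not in controls, and H1f2, H1f4, H2bc6, H2bc13, H2bc15 and H2bc26 in neither.

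**Figure D2:**
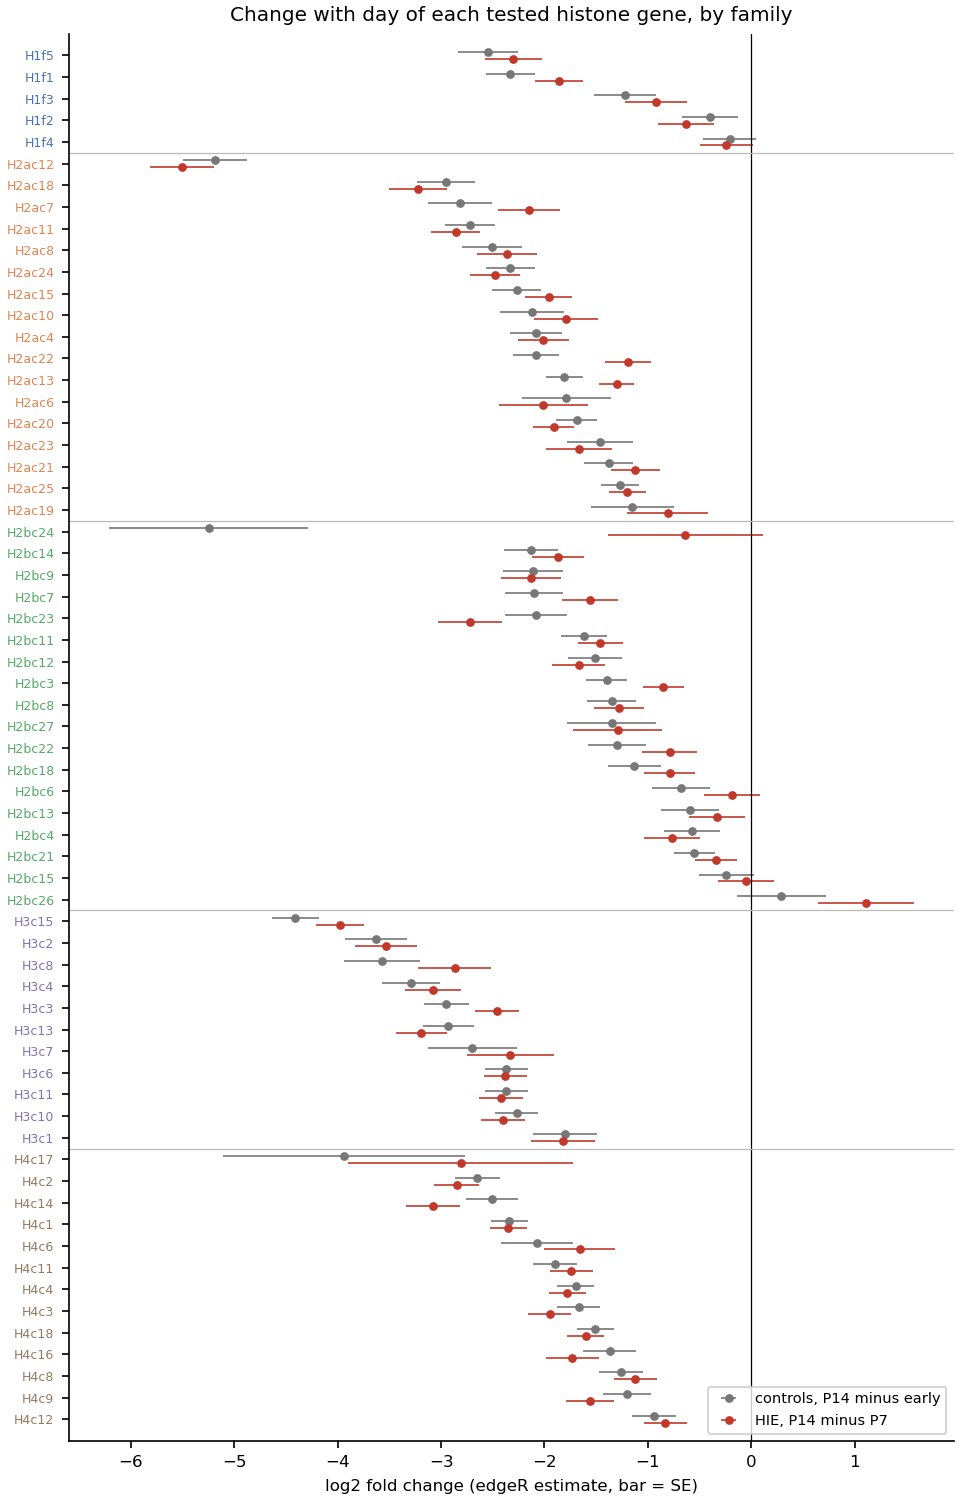
Log2 fold change with day (x axis) of each of the 64 tested histone genes (y axis, ordered within families), in controls (P14 minus early, grey) and in HIE animals (P14 minus P7, red), with SE as bars. Most points lie between -1 and -4 in both, with H2ac12, and H2bc24 in controls, below -5 and H1f4, H2bc15 and H2bc26 near or above 0.

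The H3 genes fell most as a family. All 11 tested H3 genes passed in both comparisons, with a median log2 fold change of -2.93 in controls and -2.46 in HIE. H3c2, 1 of the 2 H3 genes with the highest level per length, measured 240, 230, 218 and 155 CPM in early controls and 253, 226, 183 and 187 CPM in HIE at P7. At P14 its values were 23.5, 12.1, 20.3 and 12.0 CPM in controls, 26.1, 22.7, 13.9 and 10.8 CPM in HIE and 18.8, 13.9, 16.1 and 17.3 CPM in hypoxia. Every early animal was thus well above every P14 animal. The estimate was -3.63 ± 0.30 (SE) in controls (adjusted p = 5.3e-07, edgeR quasi-likelihood) and -3.53 ± 0.30 in HIE (adjusted p = 6.48e-07). H3c13, the other by that rule, was 7.61-fold lower in controls and 9.13-fold lower in HIE. Of its 150-base windows, only 26.3% were found in no other histone gene of the set. H3c15 fell further, from 195, 211, 182 and 125 CPM in early controls to 10.4, 6.78, 9.72 and 6.62 CPM in controls at P14, a 21.2-fold difference (adjusted p = 1.76e-08, edgeR quasi-likelihood). In HIE it went from 187, 179, 146 and 173 CPM to 13.9, 11.9, 10.1 and 7.67 CPM, 15.7-fold lower. H3c3 was 7.74-fold and 5.51-fold lower. The smallest H3 change was that of H3c1, -1.80 ± 0.31 and -1.82 ± 0.31. H3c14 was not tested: it was assigned 0 counts in 19 of the 20 animals, where 3 counts would correspond to at most 0.101 CPM, and its coding sequence is identical to that of H3c15.

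H2A genes encode the histone that pairs with H2B at the nucleosome surface, and all 17 passed in controls and 16 in HIE, with medians of -2.08 and -1.96. The widest change of any gene outside the near-identical pairs was in H2ac12. Its level was 58.0, 60.9, 51.5 and 24.3 CPM in early controls and 60.6, 58.1, 44.5 and 45.7 CPM in HIE at P7. At P14 it was 1.68, 0.935, 1.45 and 1.22 CPM in controls, 0.823, 1.40, 1.42 and 0.95 CPM in HIE and 3.54, 0.478, 0.429 and 2.05 CPM in hypoxia. The drop was 36.6-fold in controls (adjusted p = 3.03e-08, edgeR quasi-likelihood) and 45.4-fold in HIE (adjusted p = 1.84e-08). Of its 150-base windows, 15.2% were found in no other histone gene of the set, so part of its counts depends on how shared reads were divided. H2ac18 and H2ac24, the highest H2A genes per length, were 7.71-fold and 5.04-fold lower in controls and 9.34-fold and 5.59-fold lower in HIE. Only 13.3% and 9.0% of their windows were their own, and each shares its coding sequence with another gene. Summed with H2ac19, H2ac18 went from 287 to 65.5 CPM in controls and from 318 to 80.4 CPM in HIE. That fall was smaller in proportion than that of H2ac18 alone, whose values depend on how shared reads were divided. H2ac25, at the small chromosome 11 cluster, was 2.41-fold and 2.30-fold lower.

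In the H4 family, whose product pairs with H3, all 13 genes passed in controls and 12 in HIE, with medians of -1.70 and -1.74. H4c18 and H4c8 had the highest levels per length. H4c8 measured 88.1, 142, 134 and 100 CPM in early controls and 139, 120, 95.1 and 167 CPM in HIE at P7, against 49.0, 41.6, 50.2 and 52.8 CPM in controls and 82.2, 64.8, 46.6 and 45.6 CPM in HIE at P14. That made it 2.39-fold and 2.17-fold lower, the least change after H4c9 and H4c12 in controls and after H4c12 alone in HIE. H4c2 and H4c14 fell most among the H4 genes with an unshared coding sequence in HIE, by 2.85 and 3.08 on the log2 scale.

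Among the H2B genes, whose product pairs with H2A, 13 of 18 passed in controls and 12 in HIE, and the medians were -1.35 and -0.82. H2bc8 and H2bc12, the highest per length, were 2.55-fold and 2.84-fold lower in controls and 2.42-fold and 3.18-fold lower in HIE. H2bc15 differed little, with 9.73 ± 1.99 CPM (SD, n = 4) in early controls and 8.22 ± 3.39 CPM in controls at P14, and an estimate of -0.24 ± 0.27. H2bc21, the gene with no stem-loop match, measured 10.4, 12.0, 8.02 and 6.67 CPM in early controls and 7.44, 5.55, 7.04 and 5.12 CPM in controls at P14. Its estimate was -0.55 ± 0.20 in controls (adjusted p = 0.0358, edgeR quasi-likelihood) and -0.34 ± 0.20 in HIE (adjusted p = 0.216). H2bc26 had the only estimate above 0, 0.29 ± 0.43 in controls and 1.11 ± 0.46 in HIE, but it reached at most 0.610 CPM, with as few as 6 counts in an animal. By edgeR's exact test, unlike the quasi-likelihood test, it was called higher at P14 in HIE.

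The H1 genes, whose product binds the linker DNA between nucleosomes, divided into genes that fell and genes that did not pass. H1f5 fell from 111, 118, 100 and 78.0 CPM in early controls to 23.8, 10.1, 23.7 and 11.8 CPM at P14, an estimate of -2.55 ± 0.29 (adjusted p = 1.08e-05, edgeR quasi-likelihood), and by 2.30 in HIE. H1f1 fell by 2.33 and 1.86, and H1f3 by 1.22 and 0.92. The call of H1f3, P14 versus P7, HIE was lost on leaving out any 1 of 5 animals, with an adjusted p of 0.055 to 0.0876 by edgeR's quasi-likelihood test. H1f4 by contrast measured 207, 197, 190 and 218 CPM in early controls and 224, 213, 180 and 194 CPM in HIE at P7. At P14 it was at 175, 112, 306 and 106 CPM in controls, 190, 216, 138 and 145 CPM in HIE and 270, 126, 103 and 246 CPM in hypoxia. The P14 animals lay on both sides of the early ones, and the estimates were -0.21 ± 0.26 (adjusted p = 0.531, edgeR quasi-likelihood) and -0.24 ± 0.26 (adjusted p = 0.522). H1f2 did not pass either, with 234, 235, 289 and 240 CPM in early controls and 196, 127, 319 and 114 CPM in controls at P14. In HIE it went from 338, 325, 236 and 286 CPM to 204, 248, 149 and 164 CPM. There only the P14 animal at 248 CPM was above the lowest P7 animal. The estimates were -0.40 ± 0.27 in controls and -0.63 ± 0.27 in HIE, the latter further below 0 than that of H1f4.

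With these unequal falls the make-up of the histone mRNA pool differed between days. Shares of the summed CPM are not corrected for gene length, so they are compared between animals and not between families. H1 genes took 18.3% ± 1.66 (SD, n = 4) in early controls and 18.6% ± 0.24 in HIE at P7. At P14 they took 32.5% ± 5.38 in controls, 34.0% ± 2.27 in HIE and 35.6% ± 6.91 in hypoxia. H3 genes went the other way, from 25.1% ± 2.27 and 24.7% ± 0.283 to 10.6% ± 1.00, 10.5% ± 0.526 and 9.90% ± 1.48. Early and P14 animals did not overlap in either share. The H2B share went from 14.0% ± 0.495 and 13.2% ± 0.212 to between 17.5% and 19.3% in the P14 group means, the H2A share went from 18.9% to 13.9% in controls, and the H4 share lay between 22.4% and 24.8% in all 5 group means.

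**Figure D3:**
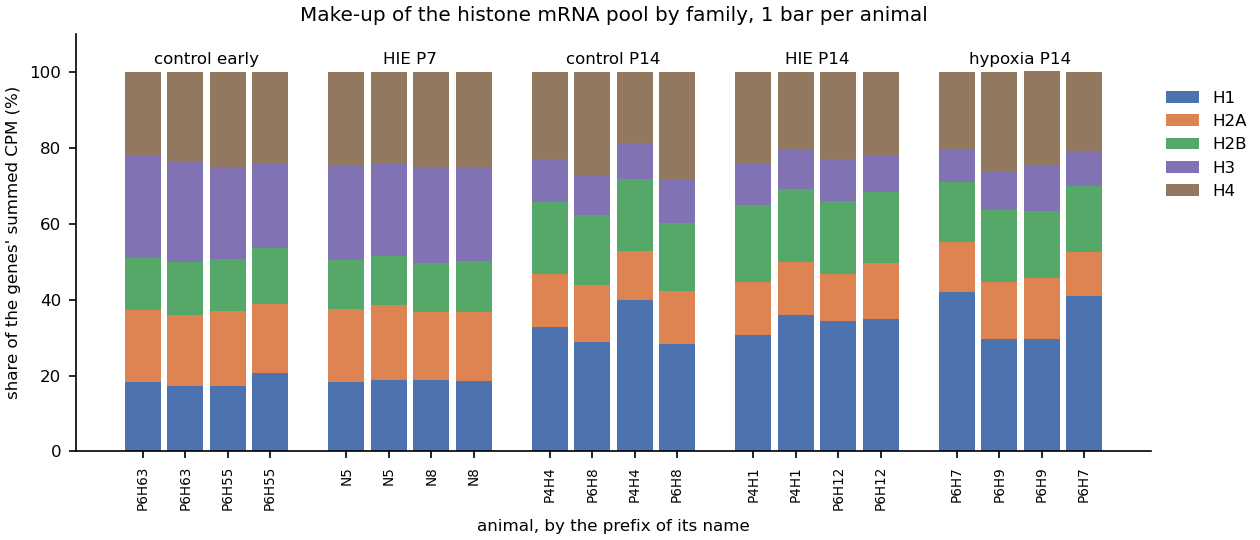
Share of the summed CPM of the 65 histone genes (y axis, percent) taken by each family, with 1 stacked bar per animal named by its prefix and grouped by the 5 groups (x axis). The H1 part rises from 17.2% to 20.7% in the early animals to 28.4% to 42.1% at P14, and the H3 part falls.

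Order by level per length also differed between days, as a description. Per kilobase of annotated exon, H4c18, H3c2 and H2ac18 stood close together in the early controls at 344, 340 and 337 CPM per kilobase, above H1f2 at 160 and H1f4 at 105. In controls at P14, H1f2 stood at 121, H4c18 at 120, H4c8 at 103 and H1f4 at 90.6 CPM per kilobase, while H2ac18 was at 43.7 and H3c2 at 27.4. H1f2 and H4c18 were within the spread between animals of each other at P14. H2ac18 shares its coding sequence with H2ac19, which stood at 169 in early controls and 75.6 in controls at P14. H4c18 shares its own with H4c17, so the places of these genes depend on how shared reads were divided. For genes with a long annotated 3′ part, such as H2bc6, the value per kilobase depends on the annotation.

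The annotated gene models end at different distances past the stem-loop. In 16 of the genes tested they run more than 500 bases past it. Their median log2 fold change with day was -1.39 in controls and -1.06 in HIE, against -2.10 and -1.87 in the 47 genes that end closer. H1f2 and H1f4 are among the former, with 840 and 1153 annotated bases past the stem-loop. H2bc24 is too, but its counts cannot be told securely from those of H2bc23. In the 9 genes with a spliced transcript in the annotation the medians were -1.40 and -0.85. These groups overlapped. In controls the longer models ran from -5.25, the value of H2bc24, to -0.21. In HIE they ran from -3.08 to -0.19, and the genes that end closer from -5.51 to 1.11. Whether the annotated length relates to the change with day was not tested. The counts are per gene, and reads from processed and extended transcripts were not separated.

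Several genes share so much sequence that their counts cannot be assigned securely. The coding sequences of H2bc23 and H2bc24, H2ac18 and H2ac19, H2ac23 and H2ac24, H4c17 and H4c18, and H3c14 and H3c15 are identical within each pair. Over all 65 genes, a median of 76.6% of the 150-base windows were found in no other member, with a range from 0 to 100%. In the pair H2bc23 and H2bc24 the level of each gene differed more than their sum. H2bc24 was at 0.204, 0.263, 0.126 and 0.160 CPM in controls at P14 and at 7.60, 2.92, 0.364 and 1.42 CPM in HIE, whereas H2bc23 was at 8.57, 5.61, 9.84 and 5.41 CPM in controls and at 2.0, 6.38, 4.70 and 5.27 CPM in HIE. The sum of the pair was 7.54 ± 2.17 CPM (SD, n = 4) in controls and 7.66 ± 2.17 CPM in HIE. Summed, the same pair went from 38.4 ± 6.32 CPM in early controls and 35.2 ± 5.92 CPM in HIE at P7 to these values. H2ac18 plus H2ac19 went from 287 ± 68.8 and 318 ± 73.2 CPM to 65.5 ± 16.1 and 80.4 ± 28.0 CPM, and H4c17 plus H4c18 from 151 ± 32.0 and 158 ± 27.5 CPM to 52.0 ± 4.47 and 51.8 ± 9.15 CPM. H2ac23 plus H2ac24 went from 128 ± 16.9 and 128 ± 24 CPM to 26.2 ± 8.57 and 23.5 ± 6.3 CPM. Outside the 5 pairs, 48 of 55 tested genes were lower at P14 in controls and 48 of 55 in HIE. Some of these also share most of their sequence, such as H3c10 with 9.5% of windows its own and H3c13 with 26.3%. Among the 44 tested genes with at least 50% of windows their own, 37 were lower in each comparison. Their medians were -1.69 in controls and -1.73 in HIE. Over all genes 25.4% and 16.2% were lower.

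The genes around histone supply moved in different measure. Counts of called genes are to be read against all genes. Of these, 25.4% were lower and 20.4% higher at P14 in controls, and 16.2% and 17.3% in HIE. Of 32 genes of DNA replication, all 32 were lower at P14 in controls and all 32 in HIE, with medians of -1.76 and -1.66. Rrm2, a subunit of ribonucleotide reductase, was at -2.81 and -2.90, Lig1, the replicative ligase, at -2.11 and -2.01, and Pcna, the sliding clamp, at -1.11 and -1.35. Of 20 mitosis genes, all 20 were lower in both, with medians of -2.34 and -2.46. Plk1, a mitotic kinase, was at -2.93 and -3.07, Aurkb at -2.54 and -2.63, and Mki67 at -2.05 and -2.33. The histone genes' median lay between those of the lists in each comparison. In HIE and control animals the summed histone level was 3.44 ± 0.572 times that of the DNA replication list in early controls, 3.00 ± 0.314 times in HIE at P7, 3.27 ± 0.786 times in controls at P14 and 2.80 ± 0.252 times in HIE at P14. These ratios overlapped between days, from 2.60 to 4.18 in the early animals and from 2.59 to 4.41 in the HIE and control animals at P14. In hypoxia at P14 the ratio was 2.65 ± 0.594, with 3.34, 2.04, 2.29 and 2.93 by animal. Those at 2.04 and 2.29 were below every early animal. Per mitosis list the histone level was 2.91 ± 0.491 times in early controls, 2.44 ± 0.218 in HIE at P7, 4.08 ± 0.898 in controls at P14, 3.96 ± 0.799 in HIE at P14 and 3.97 ± 0.992 in hypoxia. Of the 15 genes of E2F and cyclin E control, 12 were lower in each, among them E2f1 at -2.32 and -2.44 and E2f8 at -2.71 and -3.38, and 1, Rb1, was higher in controls at 0.32 ± 0.08.

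The machinery that makes and removes histone mRNA changed less by its medians. Over all genes 25.4% were lower and 20.4% higher in controls, and 16.2% and 17.3% in HIE. The count of lower processing genes in controls lay near that share. Of 16 genes of 3′ processing and turnover, 5 were lower in controls and 7 in HIE, with medians of -0.24 and -0.26, and 1, Casp8ap2, was higher in HIE at 0.29 ± 0.08. Slbp, which binds the stem-loop, was at 45.1 ± 12.7 CPM (SD, n = 4) in early controls, 47.6 ± 2.39 in HIE at P7, 36.4 ± 1.96 in controls at P14, 38.2 ± 3.69 in HIE at P14 and 42.3 ± 3.49 in hypoxia. Its day estimates were -0.30 ± 0.15 (adjusted p = 0.117, edgeR quasi-likelihood) and -0.32 ± 0.15 (adjusted p = 0.13). Cstf2 and Upf1, the helicase needed for histone mRNA decay, were at -0.48 and -0.56 in controls and at -0.35 and -0.67 in HIE, while Npat, at -0.17 ± 0.09 and -0.21 ± 0.09, did not pass. Of 18 histone chaperones, 12 and 11 were lower and 1, Atrx, was higher in each. Chaf1b and Chaf1a, subunits of the replication-coupled assembly factor CAF-1, were at -2.97 and -2.13 in controls and at -2.20 and -1.72 in HIE, and Asf1b was at -1.78 and -2.04. Hira, which deposits histone H3.3 independently of DNA replication, was at -1.02 and -1.05. Of 11 tested replacement and variant histones, whose mRNAs are polyadenylated in the main, 8 and 9 were lower, with medians of -1.07 and -0.89. H2ax was at -2.72 and -2.80 and Cenpa, the centromeric histone, at -1.78 and -2.08. H3f3b, an H3.3 gene, was at -0.04 ± 0.16 and -0.42 ± 0.16 and did not pass.

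Some cell type markers also differed between days, to be read against 20.4% of all genes higher and 25.4% lower at P14 in controls and 17.3% and 16.2% in HIE. In controls, 3 of 11 microglia markers were higher at P14 and 0 lower, 7 of 10 neural progenitor markers were lower and 0 higher, 6 of 10 oligodendrocyte lineage markers were higher and 0 lower, 7 of 10 endothelial markers were lower and 1 higher, and 4 of 8 choroid plexus markers were lower and 0 higher. Neuron markers were higher in 6 of 12 and lower in 1, astrocyte markers higher in 3 of 10 and lower in 4, erythroid markers higher in 3 of 8 and lower in 0, and neutrophil and precursor markers 0 of 10 in either direction. In HIE animals the counts were 1 of 11 higher for microglia, 3 of 10 lower for neural progenitors, 3 of 10 higher for endothelium and 2 of 8 higher for choroid plexus, with 0 in the other direction in each. Further, 4 of 12 neuron markers were higher and 1 lower, 3 of 10 astrocyte markers higher and 1 lower, 6 of 10 oligodendrocyte lineage markers higher and 0 lower, 3 of 8 erythroid markers higher and 2 lower, and 0 of 10 neutrophil and precursor markers passed. The summed neural progenitor level was 217 to 583 CPM in early controls, 213 to 267 CPM in HIE at P7, and 151 to 248 CPM at P14. Their part in the fall of the histone genes was not tested. Within the early controls, the P6H63 and P6H55 pups had summed microglia markers of 2100 and 1370 CPM against 15100 and 13300 CPM, and their histone sums were 4391 and 4858 CPM against 4722 and 3493 CPM. With only the P6H55 pups as early controls 54 of 64 histone genes were lower at P14, where 34.1% of all genes were called in either direction, and with only the P6H63 pups 56, where 57.2% were.

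The early treatment comparison sets the HIE animals at P7 beside the early controls. The HIE animals were all males with the prefixes N5 and N8. The controls were of both sexes, with the prefixes P6H63 and P6H55 and later labelled days. Treatment therefore cannot be told apart from prefix or labelled day here, and sex differs in part. At the early days no histone gene was called by edgeR's quasi-likelihood test, 0 of 64, where 0.0666% of all 22517 genes were called. Of all genes 0.0222% were higher and 0.0444% lower. At an unadjusted p under 0.05 there were 3 histone genes, against 27.3% of all genes. DESeq2's Wald test and edgeR's exact test each called 1, H2bc26, against 13.4% and 5.78% of all genes. The median log2 fold change was -0.04, beside -0.08 over all genes, and the median SE was 0.18. By family the medians ran from -0.11 in H2B to 0.05 in H4. H2bc26 measured 0.341, 0.429, 0.223 and 0.610 CPM in early controls and 0.079, 0.158, 0.139 and 0.199 CPM in HIE at P7. All HIE animals were below all controls, at an estimate of -1.49 ± 0.41 (adjusted p = 0.15, edgeR quasi-likelihood). H2ac22 was at 11.0, 10.4, 9.63 and 10.5 CPM in controls and 9.32, 7.73, 5.39 and 7.42 CPM in HIE, also without overlap (-0.49 ± 0.17, adjusted p = 0.153, edgeR quasi-likelihood). Both genes were named for their small p-values, so the lack of overlap is no further support. How many of all genes lacked overlap in this comparison was not counted.

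H2bc27 differed with the name prefix of the controls. The P6H63 pups were labelled P8 and P9 and the P6H55 pups P10 and P11, so prefix, labelled day and marker content cannot be told apart here. H2bc27 was at 16.7 and 21.1 CPM in the P6H63 pups, 3.83 and 6.18 CPM in the P6H55 pups and 6.27, 4.37, 4.54 and 6.12 CPM in HIE. Against the P6H63 pups alone its estimate was -1.80 ± 0.18 (adjusted p = 0.000111, edgeR quasi-likelihood), and against the P6H55 pups alone 0.08 ± 0.24 (adjusted p = 0.904). Against P6H63 alone 6 histone genes were called, H1f1, H2ac21, H2ac25, H2bc26 and H2bc27 lower and H4c16 higher, where 58.5% of all genes were called, a far larger share than among the histone genes. Against P6H55 alone 0 were, where 0.112% of all genes were. The estimate of H2bc26 was much the same against either, -1.39 ± 0.40 for P6H63 (adjusted p = 0.0202, edgeR quasi-likelihood) and -1.54 ± 0.52 for P6H55 (adjusted p = 0.245). H2ac25, H2bc26 and H2bc27 are the 3 genes of the chromosome 11 cluster. Leaving out early control replicate 3, a P6H55 pup, gave 3 calls, H2bc26 at -1.66, H2bc27 at -1.45 and H4c16 at 0.56, where 24.2% of all genes were called. Among genes with an estimate above 0, H1f2, H4c14 and H4c16 had the smallest p-values, with log2 fold changes of 0.24, 0.30 and 0.30, and none passed. In the same comparison 0 genes of any marker or pathway list passed, at medians of 1.13 for the microglia, -1.55 for the choroid plexus, 0.18 for the DNA replication and 0.29 for the mitosis list. Their part in these values was not tested.

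At P14, HIE and control animals overlapped in each family sum. No histone gene was called, 0 of 63, where 0.00478% of 20934 genes were. At an unadjusted p under 0.05 there were 4, against 9.87% of all genes. DESeq2 called 3, H2bc24 and H3c3 higher and H2bc27 lower, and edgeR's exact test 2, H2bc24 and H2bc27, against 2.34% and 1.1% of all genes. The median was -0.02, beside 0.01 over all genes, with a median SE of 0.27, and 30 estimates were above and 33 below 0. H3c3 had the smallest p above 0 outside the near-identical pairs. It was at 8.29, 6.81, 7.55 and 7.07 CPM in controls and at 14.5, 14.2, 11.5 and 8.53 CPM in HIE, so that all HIE animals were above all controls (0.69 ± 0.18, adjusted p = 0.256, edgeR quasi-likelihood). As H3c3 was named for its small p, the lack of overlap is no further support. H2bc27 was at 5.56, 2.92, 6.04 and 4.16 CPM in controls and 2.96, 1.57, 2.27 and 1.93 CPM in HIE, with 1 HIE animal above the lowest control (-1.12 ± 0.29, adjusted p = 0.256). H2bc24, at 3.98 ± 0.84 (adjusted p = 0.228), shares its coding sequence with H2bc23. H2bc3 was at 0.43, H2ac25 at -0.32 and H2bc23 at -0.70, and none passed. Each group held 2 P4H and 2 P6H animals. With that prefix (the cohort) as a term in the same test, 0 of 63 histone genes were called, where 0.00955% of all genes were, the median was 0.01 and the median SE 0.14. The unadjusted p was then under 0.05 for 13 histone genes, against 13.4% of all genes, with H2bc24 at 3.62 ± 0.73 (adjusted p = 0.14, edgeR quasi-likelihood), H3c3 at 0.67 ± 0.14 (adjusted p = 0.14) and H2bc27 at -1.09 ± 0.26 (adjusted p = 0.171). With cohort and sex as a block, which sets 1 HIE animal beside 1 control animal 4 times and was added after the values had been seen, again 0 were called, where 0.0% of all genes were, and 11 had an unadjusted p under 0.05, against 13.2% of all genes. No gene of the marker and pathway lists passed in this or the other P14 treatment comparisons, and the DNA replication list had a median of 0.24 and the mitosis list one of 0.16 here.

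**Figure D4:**
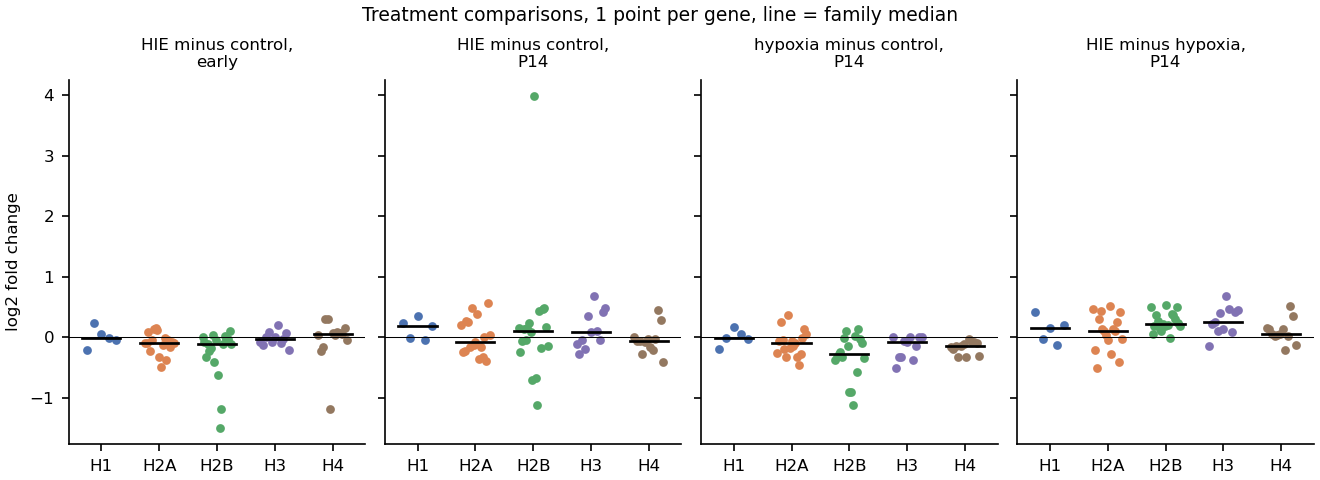
Log2 fold change (y axis) of each tested histone gene (points) by family (x axis) in the 4 treatment comparisons, with the family median as a line. Family medians lie between -0.27 and 0.25, and the point at 3.98 is H2bc24, which shares its coding sequence with H2bc23.

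Hypoxia at P14 was compared with control and with HIE. Against controls, 0 of 62 histone genes were called by edgeR's quasi-likelihood test, where 0.00955% of 20953 genes were, and DESeq2 and the exact test also called 0, against 0.783% and 0.291% of all genes. The unadjusted p was under 0.05 for 3, against 9.53% of all genes. The median was -0.14, with 52 of 62 estimates below 0, beside a median of -0.01 over all genes, but among P6H animals alone, the only ones with hypoxia, the median was 0.20. H2ac25, named for its small p, was at 20.8, 17.2, 22.3 and 17.4 CPM in controls and 15.7, 15.6, 13.5 and 13 CPM in hypoxia. The groups did not overlap (-0.45 ± 0.13, adjusted p = 0.463, edgeR quasi-likelihood), which the choice by p makes likely. H2bc27 and H3c10 followed at -1.12 ± 0.41 and -0.51 ± 0.19. Above 0, H2ac19 was at 0.37, H2bc21 at 0.11 and H2bc6 at 0.13, none of which passed. For HIE against hypoxia, 0 of 63 were called, where 0.00955% of 20949 genes were, again with 0 by DESeq2 and the exact test, against 0.0716% and 0.0811%. The unadjusted p was under 0.05 for 3, against 4.53% of all genes. The median was 0.15, and -0.17 among P6H animals alone. H3c3, H2bc11 and H3c4 had the smallest p-values above 0, at 0.68 ± 0.21, 0.50 ± 0.21 and 0.46 ± 0.21 (lowest adjusted p = 0.999). Below 0 these were H2ac12, H2ac6 and H4c3, at -0.51, -0.41 and -0.21. The comparisons at P14 share their control, HIE or hypoxia animals.

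Whether the change with day differed between HIE and control animals was tested as an interaction. No histone gene passed, 0 of 64, where 0.00405% of 24693 genes did, with 2 at an unadjusted p under 0.05, against 13.9% of all genes. DESeq2 called 1, H2bc24, against 2.73% of all genes, and so did the quasi-likelihood fit without early control replicate 3, against 4.72%. The median difference, HIE minus control, was 0.12, beside 0.04 over all genes. H2bc24 had the largest estimate, 4.62 ± 1.20 (adjusted p = 0.122, edgeR quasi-likelihood), while the sum with H2bc23 fell from 38.4 to 7.54 CPM in controls and from 35.2 to 7.66 CPM in HIE. H2ac22, at 0.89 ± 0.31 (adjusted p = 0.228), went from 10.4 ± 0.574 to 2.44 ± 0.677 CPM in controls and from 7.47 ± 1.61 to 3.26 ± 0.68 CPM in HIE. H2ac13 was at 0.51, and below 0 the smallest p-values were those of H2bc23, H4c9 and H4c14.

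Among the P14 animals the histone genes differed with the prefix of the animal names. This comparison was added after the values had been seen. In controls the P4H4 animals had 1472 and 1944 CPM in all and the P6H8 animals 1039 and 1008 CPM. In HIE the P4H1 animals had 1749 and 1736 CPM and the P6H12 animals 1137 and 1127 CPM. Among these HIE and control animals every P4H animal was above every P6H animal. The hypoxia animals are all P6H, and those of P6H7, at 1626 and 1478 CPM, were above the P4H4 animal at 1472 CPM. With treatment as a term, 62 of 63 estimates were above 0 for P4H minus P6H, with a median of 0.64 beside 0.01 over all genes, and 53 had an unadjusted p under 0.05, against 27.0% of all genes. At an adjusted p under 0.05, 20 were higher and 0 lower by edgeR's quasi-likelihood test, where 0.683% of 20934 genes were higher and 0.511% lower, 1.19% in all. These calls lay just inside the threshold, with a lowest adjusted p of 0.0476, and leaving out 1 animal gave 0 calls in 6 of 8 fits and 33 without control replicate 2, a P6H8 animal, where 12.4% of all genes were called, while the median stayed between 0.58 and 0.67.

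The largest estimates among the called genes were H2ac6 at 1.42 ± 0.22, H3c1 at 1.03 ± 0.14 and H2bc9 at 1.00 ± 0.14. H3c1 was at 13.6 and 18 CPM in P4H4, 6.22 and 6.91 CPM in P6H8, 12.5 and 14.3 CPM in P4H1 and 7.60 and 7.63 CPM in P6H12. H3c2 and H4c16 were at 0.91 and 0.73. All 5 H1 genes had estimates between 0.66 and 0.93, and H4c9, at -0.05, was the 1 gene below 0. Of the DNA replication genes 4 of 32 were higher in P4H and 0 lower, with a median of 0.33, and of the mitosis genes 0 of 20 passed, with a median of 0.44. Over all genes 0.683% were higher and 0.511% lower. Of the other lists, 1 replacement histone, 1 astrocyte marker and 2 endothelial markers were higher, and the others had 0 in either direction, with medians of 0.91 for the astrocyte and 1.64 for the erythroid list. The animals of a cohort and treatment share 1 full prefix, P4H4 or P6H8 in controls and P4H1 or P6H12 in HIE, so cohort, full prefix and anything else these animals share cannot be told apart.

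Within the hypoxia group the P6H7 and P6H9 animals also differed, but not in every family. The H1 sums were 684 and 606 CPM in P6H7 and 346 and 299 CPM in P6H9, mainly through H1f2 (275 and 233 against 142 and 117 CPM) and H1f4 (270 and 246 against 126 and 103 CPM). The H3 sums were 137 and 136 against 118 and 120 CPM, and the DNA replication sums 487 and 505 against 575 and 439 CPM. The H1 difference was thus larger than that of H3, while the DNA replication sums overlapped. The summed microglia markers were 28400 and 25600 CPM in P6H7 and 20600 and 17000 CPM in P6H9, and the oligodendrocyte lineage markers 1490 and 1230 CPM against 3510 and 2640 CPM. Erythroid markers were at 216 and 704 against 55.6 and 74.4 CPM, and neuron markers at 173 and 154 against 316 and 271 CPM. Astrocyte markers (1540 and 1760 against 2020 and 1930 CPM) and neural progenitor markers (151 and 171 against 223 and 202 CPM) did not overlap either. The endothelial, choroid plexus and neutrophil sums overlapped. The split between P6H7 and P6H9 and the part of these markers in it were not tested.

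**Figure D5:**
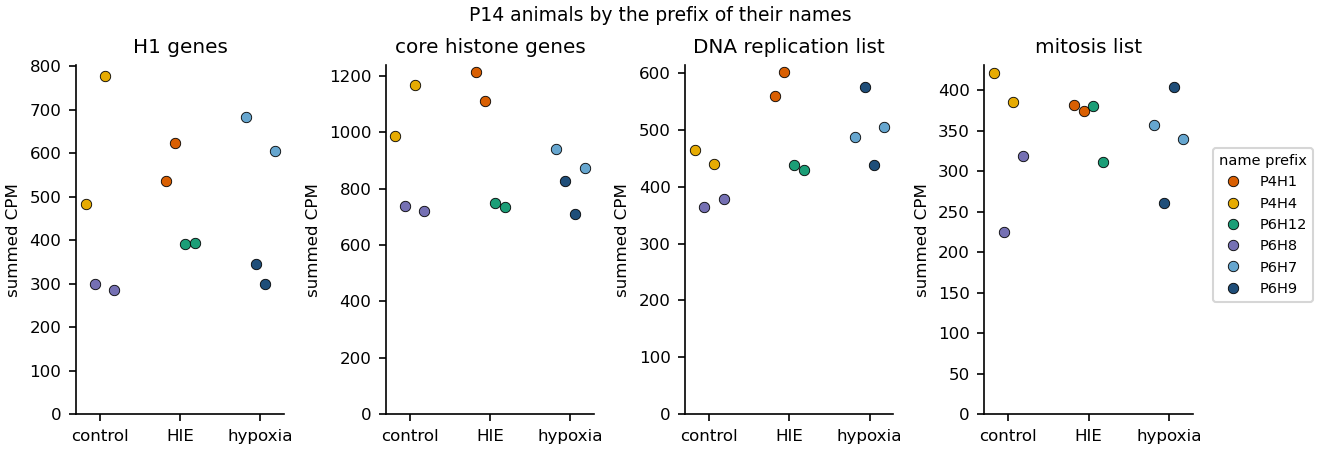
Summed CPM (y axis, linear from 0) of the H1 genes, the core histone genes, the DNA replication list and the mitosis list in each P14 animal (points), by treatment (x axis) and coloured by name prefix. The H1 sums reach 778 CPM in P4H4 and 684 CPM in P6H7, against 286 to 393 CPM in P6H8, P6H9 and P6H12.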

How the data were processed

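RNA from CD11b+ brain cells was sequenced as stranded, rRNA-depleted total RNA in 22 libraries of 20 animals. The authors aligned reads with STAR to GRCm39 and deposited expected counts per gene from RSEM, which divides reads shared by near-identical genes between them and yields fractions (84.2% to 88.0% of values were whole). No other columns were used. Symbols came from GENCODE M39 (56017 of 56691 IDs matched, 674 not); the annotation release the authors used is not given in the sources used here. Repeat libraries of 2 HIE P14 animals were summed (Spearman correlation over all genes with at least 10 counts 0.9735 and 0.9781) and the expected counts rounded. Each comparison was fitted with edgeR 4.0.16 in R 4.3.3 (filterByExpr, TMM, quasi-likelihood test, Benjamini-Hochberg adjustment over all genes tested, threshold 0.05); both day comparisons and their difference came from 1 fit over HIE and control animals. DESeq2 1.42.0, edgeR's exact test, other scalings, no filter, single prefixes, the cohort as a term, cohort and sex as a block and leaving out each animal were alternatives. The fit was tested on simulated data. P-values measure the spread between these animals, some of which share a name prefix. Floors cover counting error only. Named genes were the 2 highest per length in each family, the H1 genes and the 3 with the smallest p in each direction per comparison, and for other lists up to 2 called genes each, with Slbp, Mki67 and Pcna. Npat, Asf1b, Rb1, Casp8ap2 and further examples were added after their values were seen. Members and lists were chosen with earlier results of these data known.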

Additional observations from a re-analysis of the deposited data

Results flagged for a closer look

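In 215 sets of 4 animals, given by the summed levels and the named genes in each group, the highest or lowest animal stood apart by more than Dixon's 95% limit in 4, where chance alone would give about 1 in 20. H1f2 was at 289 CPM in early control replicate 3 (P6H55), above the other early controls at 234 to 240 CPM, a gap of 0.9 of the range. H2ac19 was at 39.8 CPM in HIE P7 replicate 3 (N8), below the others at 115 to 127 CPM, with a gap of 0.87. That animal also had the lowest histone sum of its group, 3563 CPM, and H2ac19 shares its coding sequence with H2ac18. H2bc11 was at 20.9 CPM in early control replicate 4 (P6H55), below the others at 30.3 to 30.8 CPM, with a gap of 0.942, and this animal had the lowest histone sum of the early controls, 3493 CPM. H2bc26 was at 0.263 CPM in P14 control replicate 2 (P6H8), below the others at 0.535 to 0.586 CPM, with a gap of 0.84. Whether these animals differed in anything but these values was not tested.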

How the results depend on the processing

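No paired analysis was possible because the labels carry no replicate numbers that pair animals across groups. Cohort and sex could be fitted as a block for HIE against control at P14, and 0 histone genes were called with and without it. Among the counts of called histone genes and their medians, 257 alternative values kept their direction and stayed within the limits set (counts within 1.5 times, medians within 0.258, the pooled spread between animals on the log2 scale). For HIE against control in the early animals, where the quasi-likelihood test called 0, DESeq2 called 1, edgeR's exact test 1 and the fit with P6H63 controls only 6, and leaving out 1 animal gave 0 to 3 (3 without early control replicate 3). For HIE against control at P14, DESeq2 called 3 and the exact test 2. For the difference in day change, DESeq2 called 1, the fit with P6H63 controls 1, and leaving out 1 animal gave 0 to 1 (1 without early control replicate 3). For P4H against P6H, no filter on low counts gave 45 calls in place of 20, and leaving out 1 animal gave 0 to 33. Among P6H animals only, the median was 0.2 for hypoxia against control and -0.17 for HIE against hypoxia. Single genes reversed as follows: H2bc27 in the early animals with P6H55 controls only (0.08), and, on leaving out 1 animal, H2bc21 (-0.02 to 0.21) and H2bc6 (-0.03 to 0.44) in hypoxia against control, H2ac12 in HIE against hypoxia (-0.82 to 0.2) and H4c9 in P4H against P6H (-0.23 to 0.11). H1f3 in HIE lost its call with day on leaving out any 1 of 5 animals, where the adjusted p by the same test was 0.055 to 0.0876. The causes were not tested. Scaling by library size alone moved the early median over all genes to -0.28 and that of the histone genes to -0.25. The day calls stayed at 54 to 62 in controls and 49 to 57 in HIE under all alternatives run. The early treatment comparison rests on controls labelled with different days and of different marker content. Its HIE and control animals share no prefix and no labelled day. Genes at a few counts, such as H2bc26, carry wide errors.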
